A study of Mus musculus with 18 samples.

Results

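The 12 samples of the LLC and KPP models, out of 18 samples in the series, were taken by their labels, and the C26 model was left out. All 12 are TA (tibialis anterior) muscle of male C57/B6 mice, with 3 tumor-bearing and 3 non-tumor-bearing samples in each model. Transcripts were counted on the nCounter mouse inflammation panel, in which barcoded probes hybridized to unamplified RNA are counted one by one, from 100 ng of total RNA. The question was which panel transcripts differ between tumor-bearing and control muscle in the same direction in both models. LLC tumor-bearing mice were injected with Lewis lung carcinoma cells, a transplantable mouse line (500000 cells per the labels' protocol). KPP tumor-bearing mice received tamoxifen by intraperitoneal injection (1 mg per 10 g) to start their own tumors. In the cachexia field KPP names a mouse model of pancreatic cancer. The labels name no allele or promoter, and they do not say whether KPP controls were of the same genotype or received tamoxifen. Ages and times after tumor start are not in the labels, nor whether every sample came from a separate mouse, so p-values measure the spread between samples, which may be technical.

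Cancer cachexia is a wasting of muscle and adipose tissue in patients and animals with tumors. Cytokines released by the tumor and its host, with interleukin-6 (IL-6) the best studied, act on muscle fibers through receptors that switch on the transcription factors STAT3 and C/EBP beta. Stress kinases, Toll-like receptors and glucocorticoids feed into the same acute phase and protein breakdown programs.

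Of 248 panel genes, 127 were above a signal of 20 in at least 3 of 6 samples in each model and were tested. Another 30 failed that limit in LLC only, 2 in KPP only and 89 in both, and no gene passed through 1 group alone with the other group at or under 20 throughout. The value that decides this is the one ranked 3 of 6: it was 21.76 for Ptger4, just inside, and 12.51 in KPP for Ptgs2, just outside. Counts behind the values, net of background in KPP, ranged from 41888 to 402878 per sample. Each model was scaled on its own by the authors, so levels are set side by side only within a model. Effects are tumor-bearing minus control differences of log2(value + 1), given for each model and as the mean of both, with limma's standard error (SE) and adjusted p over the 127 genes. The fit took 1 spread per gene over all 4 groups, so the LLC and KPP effects of a gene have the same SE. The groups were unequal: the median standard deviation (log2) was 0.14 in LLC controls and 0.25 in LLC tumor-bearing muscle. It was 0.21 in KPP controls and 0.42 in KPP tumor-bearing muscle. The muscle transcription factor gene Mef2c read 1700 to 2991 in LLC and 4734 to 8000 in KPP, and markers of neutrophils (0 of 4) and lymphocytes (0 of 9) did not reach the limit. The panel holds few structural muscle genes. Myl2, listed here as a slow muscle fiber marker, varied widely, from 24.58 to 244.7 in LLC and from 207.32 to 2123.22 in KPP. The tissue label could be checked no further.

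Few changes were shared. All 3 tumor-bearing samples lay above all 3 controls for 23 genes in LLC (18.1%) and for 23 in KPP (18.1%), and below them for 12 genes in LLC (9.45%) and 16 in KPP (12.6%). Of these, 8 genes moved the same way without overlap in both models (6.30% of those tested): Il6ra, Myc, Cebpb, Bcl2l1, Max and Nfe2l2 were higher (4.72%) and Map2k6 and Pdgfa lower (1.57%). The genes higher in LLC were also higher in KPP in 26.1% of cases, against 18.1% among all genes tested, and those lower in LLC were also lower in KPP in 16.7% of cases, against 12.6%. H2-Eb1 and Masp1 moved in opposite directions without overlap in both (1.57%). Across all 127 genes, 67 had the same sign in the models (52.8%), and the 2 sets of effects were nearly unrelated (Pearson r = 0.02, Spearman rho = 0.16, across genes, which are not independent replicates).

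**Figure D1:**
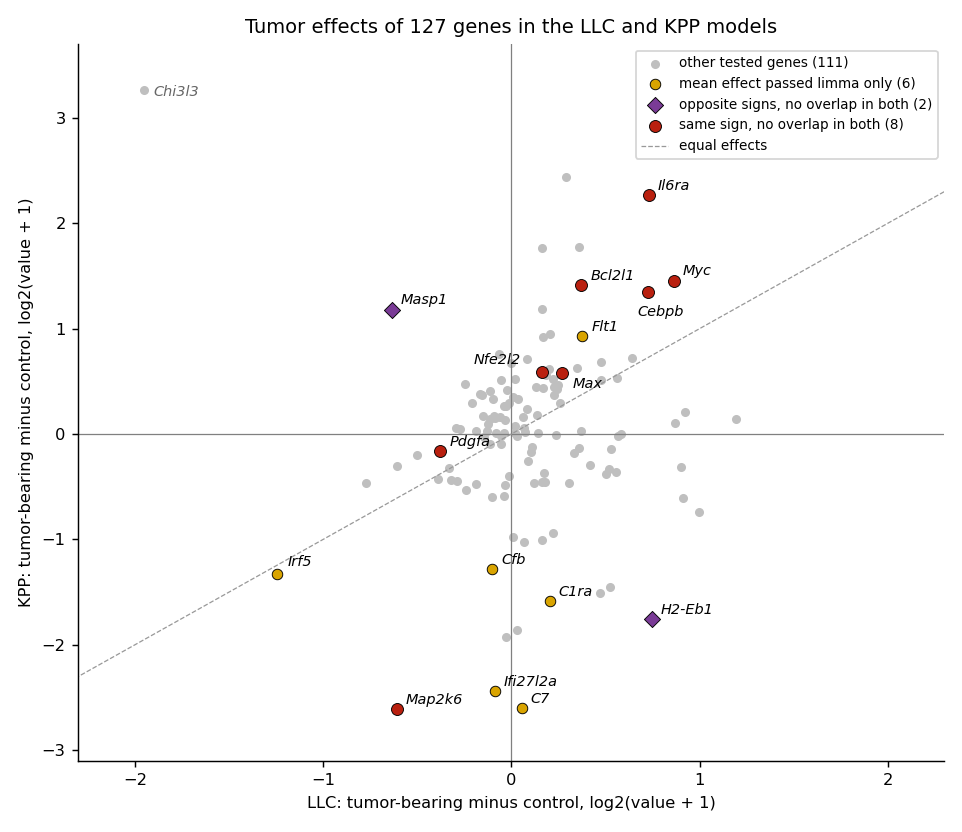
Tumor-bearing minus control difference in the LLC model (horizontal axis) and the KPP model (vertical axis), both on the log2(value + 1) scale, 1 point for each of 127 genes, with a dashed line at equal effects. The 8 genes with the same sign and no overlap in both models lie in the upper right and lower left, and the KPP effects span a wider range than the LLC effects.

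When the mean of both effects was tested with limma, 10 of 127 genes passed (7.87%), of which 4 were higher (3.15%) and 6 lower (4.72%). At an unadjusted p under 0.05 there were 34. Il6ra, Cebpb and Bcl2l1 rose and Map2k6 fell, and these 4 also had no overlap in either model. Flt1 rose too, and Irf5, C7, C1ra, Cfb and Ifi27l2a fell; all of these but Irf5 overlapped between the LLC groups. The no-overlap count and the limma test read the same values, so neither is independent of the other. In the same limma fit of 12 samples, the LLC effect gave 0 of 127 calls (0%), with 11 at an unadjusted p under 0.05. The KPP effect gave 19, 8 higher (6.30%) and 11 lower (8.66%), with 40 at that unadjusted p. With each model fitted alone, on its own spread, LLC gave 9 calls and KPP 4. The mean test rested on small groups: it called 5, 2 and 3 genes without LLC control A, B or C, 2 without LLC tumor C, 6 without KPP control C and 26 without KPP tumor A. Cebpb and C7 passed in each of the 12 fits that lacked 1 sample, Map2k6 in 10 of 12 cases, Flt1 and C1ra in 9, Il6ra in 8, Bcl2l1 in 5, Cfb and Ifi27l2a in 4 and Irf5 in 2. The fit of 18 samples did not call Irf5, Cfb, Ifi27l2a and C1ra.

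**Figure D2:**
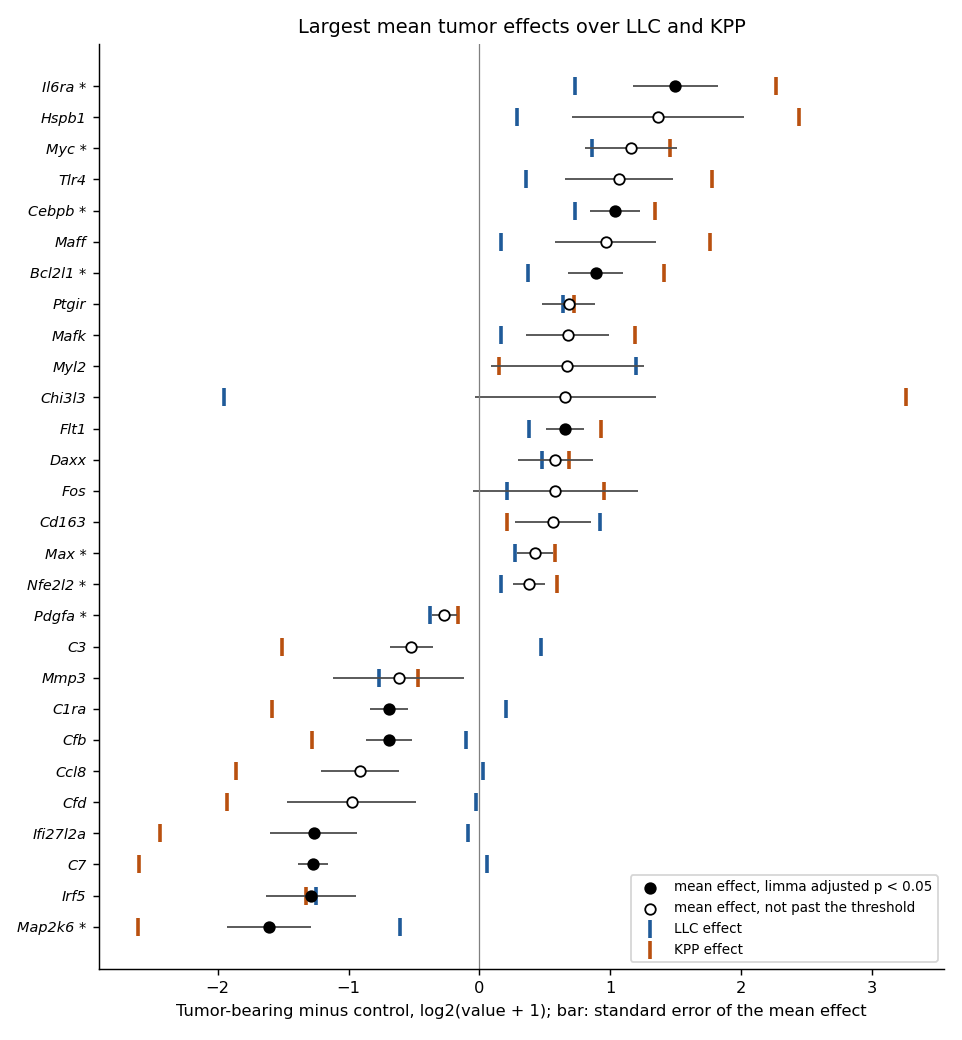
Mean of the LLC and KPP tumor effects (circles, with bars for limma's standard error) on the log2(value + 1) scale for the 15 highest and 10 lowest genes and for all genes with a shared change without overlap (asterisks). Filled circles passed limma at an adjusted p of 0.05, and the colored ticks give each model's own effect: for C7 the LLC tick is near 0 and the KPP tick at -2.60, while for Irf5 the ticks nearly coincide.

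The receptor gene among the shared changes was Il6ra, which encodes the IL-6 binding chain that pairs with gp130. Its signal in LLC controls A, B and C was 28.74, 37.45 and 36.26, against 56.65, 53.77 and 60.37 in tumor-bearing A, B and C. In KPP it was 109.97, 47.12 and 81.34 in controls and 241.69, 872.98 and 230.4 in tumor-bearing muscle. Each tumor-bearing group lay wholly above its controls, with sample B far above the others in KPP. The mean rise was 1.50 on the log2 scale (SE 0.33, limma adjusted p = 0.0212), from 0.73 in LLC and 2.27 in KPP. As few as 15 counts, net of the subtracted background, stood behind the lowest KPP value, a counting error of at least 26.2%.

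Cebpb encodes C/EBP beta, a factor that IL-6 induces and that switches on acute phase genes. In LLC it read 574.73, 567.65 and 550.1 in controls and 769.04, 918.1 and 1155.46 in tumor-bearing muscle. In KPP the controls read 1660.5, 1519.5 and 1612.72 and the tumor-bearing samples 2662.72, 6243.9 and 4002.54. Controls were tight in both models, and every tumor-bearing sample stood clear of them. Cebpb rose by 1.04 (SE 0.19, limma adjusted p = 0.0141), 0.73 in LLC and 1.34 in KPP.

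Bcl2l1 encodes BCL-XL, a mitochondrial protein that opposes apoptosis and a known target of STAT factors. LLC controls read 75.52, 74.91 and 73.55, and tumor-bearing samples 110.29, 82.0 and 100.21. KPP controls read 353.17, 195.32 and 217.32, and tumor-bearing samples 449.17, 1018.8 and 618.2. The gap was small in each model: tumor-bearing B in LLC and tumor-bearing A in KPP came closest to the controls. The counting error reached 12.8% in LLC and at least 12.8% in KPP. The mean rise was 0.89 (SE 0.21, limma adjusted p = 0.028), with 0.37 in LLC and 1.41 in KPP.

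Map2k6 encodes MKK6, a kinase that activates p38 MAP kinases, and it was the shared change of largest size. LLC controls read 392.29, 334.74 and 297.32, and tumor-bearing samples 249.52, 251.37 and 175.07. In KPP the controls read 1097.71, 1087.77 and 1070.62, while tumor-bearing muscle read 416.07, 79.46 and 165.76. The KPP controls were within a few percent of each other and all 3 tumor-bearing samples were far below them, B lowest. Map2k6 fell by 1.61 (SE 0.32, limma adjusted p = 0.0178), with effects of -0.61 in LLC and -2.61 in KPP. Mapk14, the p38 alpha gene, stood at 0.17 in LLC and -0.37 in KPP and did not pass.

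**Figure D3:**
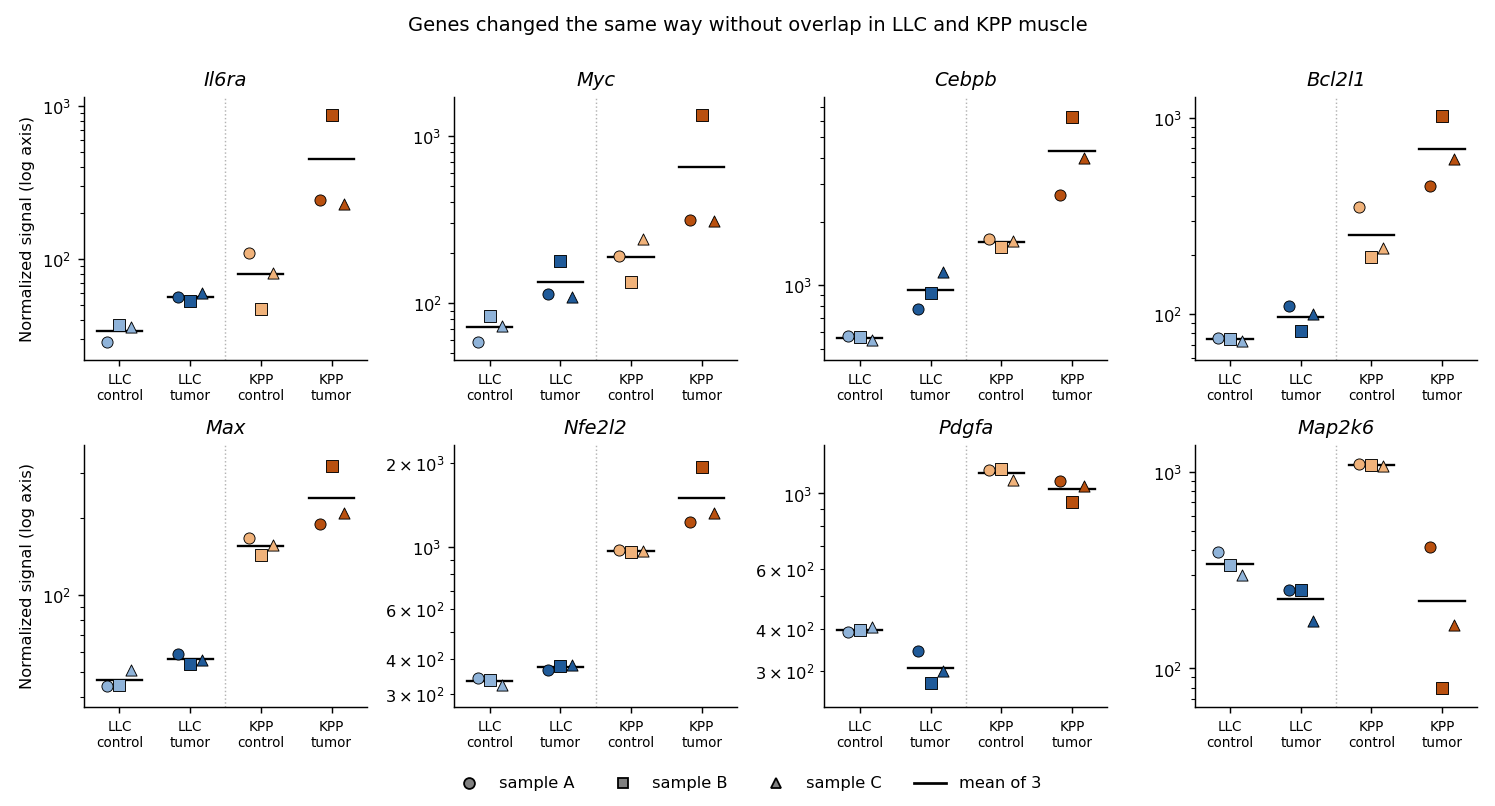
Normalized signal (log axis) in each sample of the 4 groups for the 8 genes that changed the same way without overlap in both models, with a symbol for each sample letter and a bar for the mean of 3. The dotted line separates the models, whose levels were scaled separately. KPP tumor-bearing sample B is the most extreme of its group in every panel, at 872.98 for Il6ra and 79.46 for Map2k6.

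Sequences before the start of these 4 genes are shown, with the letters of 5 motifs searched on both strands. Each gene changed the same way without overlap in both models and passed the mean test, 3 higher and Map2k6 lower. The windows are RefSeq's (build GRCm38.p6, 250 bases before to 50 after the annotated start, written 5′ to 3′ along the gene), and capitals mark a motif.
Il6ra, chr3:89913147-89913446, minus strand: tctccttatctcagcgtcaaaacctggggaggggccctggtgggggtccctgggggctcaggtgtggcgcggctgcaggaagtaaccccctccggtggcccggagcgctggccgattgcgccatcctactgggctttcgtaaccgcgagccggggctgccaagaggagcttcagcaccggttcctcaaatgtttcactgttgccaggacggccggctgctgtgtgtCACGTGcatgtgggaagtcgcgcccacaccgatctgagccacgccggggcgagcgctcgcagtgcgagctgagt
Cebpb, chr2:167688665-167688964, plus strand: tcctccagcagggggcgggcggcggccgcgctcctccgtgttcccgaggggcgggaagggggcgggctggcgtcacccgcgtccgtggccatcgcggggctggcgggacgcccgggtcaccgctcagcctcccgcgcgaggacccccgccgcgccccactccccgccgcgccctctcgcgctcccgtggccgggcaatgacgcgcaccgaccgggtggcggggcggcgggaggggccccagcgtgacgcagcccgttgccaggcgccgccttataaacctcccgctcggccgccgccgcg
Bcl2l1, chr2:152830668-152830967, minus strand: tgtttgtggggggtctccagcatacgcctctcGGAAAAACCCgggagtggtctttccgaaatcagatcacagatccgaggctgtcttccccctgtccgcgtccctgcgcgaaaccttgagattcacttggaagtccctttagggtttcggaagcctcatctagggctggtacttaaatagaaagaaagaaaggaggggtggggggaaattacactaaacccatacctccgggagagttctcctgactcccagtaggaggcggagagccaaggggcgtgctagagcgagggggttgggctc
Map2k6, chr11:110398852-110399151, plus strand: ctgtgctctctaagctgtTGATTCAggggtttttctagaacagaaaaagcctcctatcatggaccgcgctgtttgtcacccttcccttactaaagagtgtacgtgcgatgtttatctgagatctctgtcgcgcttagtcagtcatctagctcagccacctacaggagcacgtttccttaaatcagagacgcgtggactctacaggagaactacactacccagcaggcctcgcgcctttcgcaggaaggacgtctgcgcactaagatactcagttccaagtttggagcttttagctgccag
The capitals in the Il6ra window are an E-box (CACGTG), a letter string that Myc and Max bind as a pair, starting 24 bases before the annotated start. Those in the Bcl2l1 window, 1 of 3 for that gene, match an NF-kB motif, on the reverse strand. Those in the Map2k6 window, also 1 of 3, match the AP-1 string as searched here (TGANTCA). That string allows any middle letter, which is T in this window. The Cebpb window held none of the 5, with 80.7% G and C against a median of 52.7% over 32851 windows.

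Over the 12 windows of 7 of the 8 genes, matched by symbol, no window held the C/EBP string TTGCNNAA (10.8% of all windows, 14.0% of those of tested genes) or the STAT string TTCNNNGAA (8.3% and 13.2%). The AP-1 string stood in 1 window (7.8% and 5.9%), the NF-kB string in 1 (1.6% and 4.4%) and the E-box in 2, those of Il6ra and Max (7.2% and 9.6%). The E-box was added after Myc and Max had been seen among the genes. These are matches of letters in short windows and not binding sites.

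The other transcription factors that were higher without overlap in both models did not pass the mean test. Myc, a driver of growth and ribosome genes, read 58.81, 84.27 and 72.52 in LLC controls and 113.31, 178.78 and 108.66 in tumor-bearing muscle, and 191.62, 134.11 and 240.13 in KPP controls against 314.24, 1319.46 and 309.52. Its effects were 0.86 in LLC and 1.45 in KPP, with a mean of 1.16 (SE 0.35, limma adjusted p = 0.0738). Sample B was the highest tumor-bearing sample of both models; without KPP tumor B the mean was 0.81 and Myc passed. Max, the partner that Myc needs to bind DNA, read 44.11, 44.48 and 50.76 against 59.06, 53.77 and 55.54 in LLC, and 167.92, 143.77 and 157.09 against 189.5, 319.87 and 209.22 in KPP. The Max groups were close to touching in LLC, where the counting error reached 16.2%. Its mean effect was 0.42 (SE 0.14, limma adjusted p = 0.0741).

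Nfe2l2 encodes NRF2, the regulator of antioxidant genes. It read 340.16, 335.91 and 322.18 in LLC controls against 363.43, 375.04 and 380.32, a difference of 0.16, and 976.54, 962.12 and 972.06 in KPP controls against 1226.9, 1932.83 and 1322.48, a difference of 0.59. The LLC difference was small, and the samples within each group were close together. The counting error of single Nfe2l2 values reached 6.0% in LLC and at least 5.8% in KPP. The mean effect was 0.38 (SE 0.12, limma adjusted p = 0.0741). Keap1, which holds NRF2 in check, overlapped between the LLC groups and had a mean of 0.41 (adjusted p = 0.0929).

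Pdgfa, a growth factor ligand of mesenchymal cells, was the second gene lower in both. It read 389.62, 396.77 and 405.06 in LLC controls against 342.94, 276.91 and 300.64, and 1172.34, 1177.98 and 1096.18 in KPP controls against 1089.43, 942.88 and 1055.03. The KPP groups were nearly adjacent, 1096.18 against 1089.43, with a counting error of at least 5.2% at the lowest KPP count. Pdgfa was the only one of the 8 with the larger effect in LLC (-0.38 against -0.16), and its mean of -0.27 did not pass (SE 0.10, adjusted p = 0.0922).

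In 7 of the 8 genes the effect was larger in KPP, as it was in 89 of all 127 genes (70.1%); the median absolute effect was 0.19 in LLC and 0.42 in KPP. LLC signals kept their background, with a floor of 20, while KPP signals had it subtracted, and the part of this in the sizes was not tested. No difference between the models passed for any of the 8. The nearest were Map2k6, at -2.01 in KPP minus LLC (95% interval -3.42 to -0.59, limma adjusted p = 0.105), Bcl2l1 at 1.04 (0.11 to 1.97, 0.241) and Il6ra at 1.54 (0.10 to 2.98, 0.272). The intervals are wide, and a missed threshold does not show equal effects.

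KPP tumor-bearing sample B was the most extreme of its group for all 8 genes. It was the highest of the 3 KPP tumor-bearing samples for all 6 raised genes and the lowest for both lowered ones, and it was the highest for 83 of all 127 genes (65.4%). Its housekeeping genes Gapdh (28733.16) and Pgk1 (2600.42) were the lowest of the 6 KPP samples and its Hprt (739.83) the highest. Hprt, also a scaling gene, was higher without overlap in KPP as a group (0.68), more than Max (0.58) and Nfe2l2 (0.59) in KPP. The other housekeeping genes overlapped in both models, with Gapdh at -0.27 and Pgk1 at -0.55 in KPP. Gapdh and Pgk1 are glycolytic enzymes to which the values were partly scaled. Without KPP tumor-bearing B the mean effects of Il6ra, Cebpb, Bcl2l1 and Map2k6 were 1.18, 0.88, 0.73 and -1.33, and limma called 14 genes. The KPP effects of the 8 genes then kept from 52.4% of their size (Myc) to 78.2% (Map2k6), with no change of direction. Tumor-bearing A deviated from the group mean the opposite way to B across genes (r = -0.80 across 127 genes; deviations within a group of 3 sum to 0, so such values tend to be negative). Leaving A out gave 26 calls.

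The shared list depended on the scaling. Scaled to the 4 housekeeping genes without Gapdh and Pgk1, 7 genes had the same sign without overlap, among them 5 of the 8; with median centring there were 6, among them 4, and with quantile normalization 8, among them 6. The genes that entered were Irf5 and Mafg without Gapdh and Pgk1, Cfb and Ptgir with median centring, and Mafg and Ripk2 with quantile normalization. Il6ra, Cebpb, Myc and Map2k6 remained without overlap under all 3, while Bcl2l1 and Pdgfa dropped out under 2 of them, Max under 3 and Nfe2l2 under 2. These scalings moved the median mean effect of all genes from 0.08 to -0.05, 0.00 and 0, and limma then called 4 higher and 10 lower, 7 and 8, and 10 and 8. None of the 30 genes followed through the alternatives changed direction, which filters and fits that alter only the SE could not bring about. With every one of the 12 samples above 20, 115 genes were left and all 8 were among them.

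Irf5 and Flt1 passed the mean test but overlapped in 1 model. Irf5, a transcription factor of Toll-like receptor signaling in myeloid cells, read 93.56, 91.29 and 102.56 in LLC controls against 25.92, 37.64 and 63.99, and 312.78, 253.32 and 234.66 in KPP controls against 72.4, 60.78 and 262.71. It had almost the same effect in both models (-1.25 and -1.32; mean -1.29, SE 0.34, adjusted p = 0.0419), and KPP tumor-bearing A and B were low while C stayed among the controls. Flt1, a receptor for vascular endothelial growth factor on endothelial cells, read 206.5, 189.61 and 165.75 in LLC controls against 264.58, 184.16 and 292.19, and 930.01, 726.93 and 962.93 in KPP controls against 1837.89, 1712.9 and 1426.12. Only LLC tumor-bearing B overlapped its controls, and the mean rise was 0.65 (SE 0.15, adjusted p = 0.0216). Flt1 lost its call when scaled without Gapdh and Pgk1. Ptgir, the prostacyclin receptor, was listed here with Flt1 as endothelial, and which cells carry it in these samples was not tested. It stood at 0.64 in LLC and 0.72 in KPP (mean 0.68, limma adjusted p = 0.0738).

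The remaining genes that passed the mean test were not shared in the deposited scaling. C7, a terminal complement component made by connective tissue cells, read 115.61, 129.92 and 133.64 in LLC controls and 115.72, 150.55 and 129.19 in tumor-bearing muscle, an effect of 0.05. In KPP it read 475.21, 501.4 and 387.07 against 76.21, 76.45 and 68.81, an effect of -2.60, so the LLC groups overlapped and the KPP groups did not. C1ra (0.20 and -1.59), Cfb (-0.10 and -1.28) and Ifi27l2a (-0.09 and -2.44) had the same form. Limma's test of the difference between the models passed for C7 and C1ra. It did not pass for Cfb (adjusted p = 0.101) or Ifi27l2a (adjusted p = 0.0766). Ifi27l2a has a close copy, Ifi27l2b, whose RNA its probe may also count. A mean over models can pass on 1 model, which is why a change is called shared here only where both models show it.

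The test of the difference between the models passed for 6 genes (4.72%), with 19 at an unadjusted p under 0.05. C7 (KPP minus LLC -2.65), C1ra (-1.79), C3 (-1.98) and C1s (-1.15), all complement genes that connective tissue cells express, were lower in KPP tumor-bearing muscle and near or above control in LLC. H2-Eb1, an MHC class II chain of antigen-presenting cells, read 232.57, 189.61 and 199.94 in LLC controls against 344.74, 388.48 and 312.71, and 1984.48, 784.92 and 1516.9 in KPP controls against 455.53, 375.3 and 355.21. It was thus higher in all LLC and lower in all KPP tumor-bearing samples (0.75 and -1.76; difference -2.50, SE 0.41, adjusted p = 0.00317). Masp1, a protease of the lectin complement pathway, did the reverse (-0.63 and 1.18; difference 1.82, SE 0.42, adjusted p = 0.0271), and 2 of its 3 LLC tumor-bearing values were at the floor of 20. Chi3l3, a marker of alternatively activated macrophages, had the widest difference, 5.21 (adjusted p = 0.059), and did not pass; 2 of its LLC tumor-bearing values were at the floor and a KPP control was at 1.

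The shared genes were spread over several pathway lists. These lists were chosen with earlier results of these data known and share members such as Cebpb. Their counts and medians are therefore descriptions and not tests. Of 6 tested genes of IL-6 and IL-1 reception, 2 rose in the mean test and were higher without overlap in both models, Il6ra and Cebpb (list median 0.35, against 0.08 over all 127 genes). Stat3 (0.25 in LLC, 0.46 in KPP), Il1r1 (-0.09 and 0.15) and Il1rap (-0.04 and -0.59) did not pass, and Myd88 was higher without overlap in KPP (0.67) but overlapped in LLC. Of 12 immediate early and stress transcription factors, 1 rose (Cebpb) and 3 were higher without overlap in both models (Cebpb, Myc and Max), 8 had positive effects in both, against 44 of all 127 genes (34.6%), and the list median was 0.48. Jun (0.17 and 0.92), Fos (0.21 and 0.95), Maff (0.16 and 1.77) and Mafk (0.16 and 1.19) had overlapping KPP groups except for Maff, and did not pass the mean test. Without KPP tumor-bearing B the KPP effect was -0.21 for Fos, 0.54 for Mafk, 1.06 for Maff and 0.76 for Jun. Ddit3, of the unfolded protein response, was lower without overlap in LLC (-0.61) and overlapped in KPP (-0.30). Of 5 NRF2 and oxidative stress genes, 1 was shared (Nfe2l2), none passed the mean test and all 5 had the same sign in both models, against 52.8% of all genes; 3 of the 5 (Maff, Mafg and Mafk) are also in the list before.

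Other pathway lists held few or no shared changes. Among 14 NF-kB and TNF receptor genes Bcl2l1 was the 1 call (median 0.11); Ripk2 (0.56 and 0.53) and Daxx (0.47 and 0.69) were higher without overlap in LLC, overlapped in KPP and did not pass. Of 16 MAP kinase cascade genes Map2k6 was the 1 call, and 5 of the 16 had the same sign in both models (median -0.00363). Of 4 Toll-like receptor genes none passed; Tlr4, the endotoxin receptor, stood at 0.36 and 1.78, with 130.95 in KPP tumor-bearing A, inside the control range, and 1070.61 and 602.6 in B and C. Of 12 complement genes 3 fell in the mean test (C7, C1ra and Cfb) and none was shared without overlap; of 11 interferon-stimulated genes 2 fell (Irf5 and Ifi27l2a) and none was shared. The TGF-beta and matrix list (9 genes) held Pdgfa alone. Its member Mmp3 had a mean among the 10 lowest (-0.62, limma adjusted p = 0.505) and overlapped in both models (-0.77 and -0.47). No call in the mean test and no shared change was found among 13 small GTPase and G protein genes, 10 MEF2 and muscle genes, 5 chemokines and 4 eicosanoid genes. The chemokine Ccl8, which attracts monocytes, fell in KPP (-1.86, limma adjusted p = 0.011), overlapped in LLC (0.03) and did not pass the mean test (-0.91, adjusted p = 0.0741).

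In the muscle list, Hspb1, a small heat shock protein that guards the contractile apparatus, had the second highest mean effect (1.36) without passing (adjusted p = 0.202). It read 3737.82, 3881.11 and 3533.8 in KPP controls and 2591.44, 50741.0 and 62298.61 in tumor-bearing A, B and C. B and C were thus far above the controls and A below them, and LLC stood at 0.29 with overlapping groups. Mef2c was near -0.4 in both models (-0.39 and -0.42, adjusted p = 0.0875), lower without overlap in LLC and not in KPP.

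Markers of other cell types moved differently in the models. The summed signal of 12 macrophage and monocyte markers was 621.3 to 710.9 in LLC controls and 803.2 to 1070.2 in tumor-bearing muscle, and 1552.5 to 2673.5 against 1208.8 to 2923.2 in KPP. The groups were apart in LLC and overlapped in KPP, and 0 of 8 tested markers passed the mean test. Among them Cd163, with a mean in the 15 highest (0.56, limma adjusted p = 0.228), was higher without overlap in LLC (0.92). In KPP it overlapped (0.21). Cfd, an adipocyte marker, overlapped in LLC (297.4 to 622.7 against 170.2 to 1163.8) and was 1200.5 to 5037.2 against 419.9 to 920.6 in KPP. The 8 genes listed as connective tissue markers summed to 2147.7 to 2239.4 against 1945.1 to 2574.2 in LLC. In KPP they summed to 7278.1 to 9497.2 against 4721.1 to 5752.4. C7 and C1ra, 2 of them, fell in the mean test, and Pdgfa is 1 of the 8. By the KPP effect 4 of the 8 were called lower and 1, Masp1, higher (1.18). Only 1 of the 8 had the same sign in both models. Whether all 8 mark these cells in muscle was not tested. In these bulk samples fewer cells of a type and less RNA per cell cannot be told apart, and the part of these markers in the shared changes was not tested.

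In C26 muscle, which did not enter the choice of genes, all 8 had the opposite sign to their LLC and KPP mean, as did 74 of the 127 genes (58.3%). The median C26 effect over the 127 genes was -0.28, and 6 of the 8 were genes raised in LLC and KPP. Nfe2l2 (-0.34) and Max (-0.47) lay not far from that median. The part of this general shift in the signs was not tested. The C26 samples come from CD2F1 mice given cells of a colon tumor line, and their values were scaled separately. Map2k6 read 119.09, 80.91 and 54.86 in C26 controls and 393.22, 382.23 and 400.94 in samples labelled tumor-bearing, an effect of 2.26. Il6ra read 77.2, 74.22 and 213.35 in controls against 27.14, 32.39 and 41.67, an effect of -1.66, and Myc 210.95, 113.55 and 422.65 against 42.72, 45.88 and 43.85, an effect of -2.27. The groups did not overlap for these or for Cebpb (-0.65), Bcl2l1 (-0.63) and Nfe2l2 (-0.34), 6 of the 8 in all, against 42.5% of the tested genes in C26. In a limma fit of all 18 samples, C26 itself passed for 3 of the 8 (Map2k6, Il6ra and Myc; 33.1% of all genes). The difference between C26 and the other models was not tested, since the LLC and KPP values had chosen the genes. Irf5 also had the opposite sign (2.36). Every C26 sign rests on the labels of its samples: exchanged labels would turn them all, and whether they are right was not tested.

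**Figure D4:**
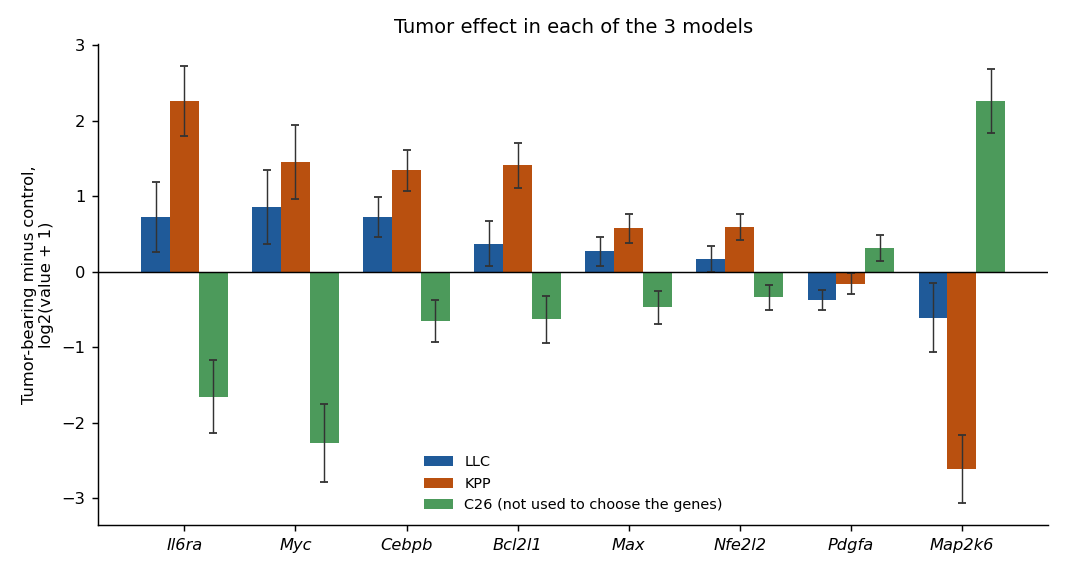
Tumor-bearing minus control difference on the log2(value + 1) scale for the 8 shared genes in LLC, KPP and C26, with bars starting at 0 and error bars for limma's standard error (LLC and KPP from the fit of 12 samples, C26 from the fit of 18). The LLC and KPP error bars of a gene are equal, since their fit pools the spread of its groups. For each gene the C26 bar points the other way from the LLC and KPP bars, at 2.26 for Map2k6 against -0.61 and -2.61.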

How the data were processed

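The deposited values are a normalized signal. The authors' steps are not stated in the labels, and the following was read from the values. In the deposited signal the geometric mean of the 6 housekeeping genes was 591.2 in every LLC sample and 1769.1 in every KPP sample, so each model was scaled alone. KPP has a background subtracted, while LLC values under 20 were written as 20, which held for 118 to 123 genes per sample. Low values lie on steps (100.0% within 0.1 of a step), which gave scale factors from 0.602 to 3.223, the counts, and a counting error of 7.8% to 18.0% at a signal of 100. In KPP the counts are net of the subtracted background, so its counting errors are lower limits. No 2 samples were identical.

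Control probes and housekeeping genes were not tested. Values were taken as log2(value + 1), a scale that understates changes of low genes, and group means of the 12 samples were fitted with limma (version 3.58.1, R 4.3.3), two-sided, with Benjamini-Hochberg adjustment over 127 genes at 0.05. SE is limma's moderated standard error. The fit was tested on simulated data. Gene names matched RefSeq symbols for 125 genes and synonyms for 2; file names are kept, except that Mef2c_Mm is written Mef2c. Named were all genes with shared or opposite changes without overlap, all passing the mean test, the 15 highest and 10 lowest mean effects, the 5 smallest p of the difference and members of 13 pathway and 9 cell type lists. Members, lists and tests were chosen with earlier results of these data known. The C26 comparison and the E-box were added after seeing the data. Same-letter samples did not pair: correlations of their deviations ran from -0.30 to 0.23. Alternatives covered pseudocounts, filters, scalings, fits, a replicate block and each sample left out.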

Additional observations from a re-analysis of the deposited data

Results flagged for a closer look

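The tumor effect differed between KPP and LLC, by limma's test of the difference, for 6 genes. KPP minus LLC was -2.65 for C7, -2.50 for H2-Eb1, -1.79 for C1ra, -1.98 for C3, -1.15 for C1s and 1.82 for Masp1. For H2-Eb1 and Masp1 every sample moved one way in LLC and the other way in KPP.

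For 6 of the 8 shared genes every C26 sample moved the opposite way to LLC and KPP; this difference was not tested. The C26 effect was 2.26 for Map2k6, -2.27 for Myc, -1.66 for Il6ra, -0.65 for Cebpb, -0.63 for Bcl2l1 and -0.34 for Nfe2l2. Strain, tumor line, scaling and the correctness of the C26 labels cannot be told apart here.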

How the results depend on the processing

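The 10 calls of the mean effect became 18 with quantile normalization, 16 with trend and robust moderation and 0 in the exact permutation test within models, which calls 26 unadjusted and whose smallest possible p of 0.005 adjusts to 0.0794. They ranged from 2 to 26 over the 12 fits that left out a sample. The fit of 18 samples called 7, 6 of them among the 10, and each model fitted alone called the same 10 genes. With the replicate block, 1 gene was called (C7); letters are not known to mark a shared litter or day, and 2 of 6 same-letter pairs correlated best with their own letter. The 6 differences between KPP and LLC became 11 without a filter, 10 scaled without Gapdh and Pgk1, 10 with median centring and 1 in the fit of 18 samples, and ranged from 5 to 12 with a sample left out. The 0 LLC calls became 9 when LLC was fitted alone. The 19 KPP calls became 30 without a filter, 29 with median centring and 4 when KPP was fitted alone, and ranged from 15 to 36 with a sample left out. The 8 shared changes without overlap ranged from 9 to 13 with a sample left out, which can only add genes. Of 765 single-gene alternatives over 30 genes, 196 kept a call, 475 stayed without one, 62 lost it, 32 gained one and 0 changed direction. Of the 30 genes, 10 had a call to keep or lose. Many alternatives altered only the genes tested or the SE, so the direction could not change in them. Fos came close to a change, with a mean effect of 0.00037 without KPP tumor-bearing B. The LLC floor of 20 and 3 samples per group limit what can be seen in dim genes.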
